A study of Mus musculus with 20 samples.

Results

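Hippocampal gene expression was compared between the 10 libraries labelled PS19/C3aR KO or C3aR KO and the 10 labelled PS19 or WT, with the PS19 transgene as a block, so that a difference is credited to the C3aR KO label over both backgrounds. All 20 libraries of the series entered the comparison, 5 for each of the 4 genotypes. The groups were PS19/C3aR KO, which carries the tau transgene together with the C3aR KO label, C3aR KO, which carries the label alone, PS19, which carries the transgene alone, and WT, which carries neither. All groups were labelled C57BL/6J, male and 9 months old, and polyadenylated RNA was sequenced from whole hippocampus. PS19 mice express mutant human tau from the mouse prion protein promoter, which drives it mainly in neurons.

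C3aR is a G protein-coupled receptor for C3a, a peptide cut from complement component C3 when complement is activated. In brain it is best known from microglia, the resident macrophages, and C3a released by reactive astrocytes is one of its ligand sources. Tau pathology is known to be accompanied by raised C3 in astrocytes and by a change of microglia away from their resting state.

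Gene counts came to 33885800 to 47828100 per library, and 16657 of 24513 genes had enough counts to be tested. Rn45s, a ribosomal RNA precursor, took a mean of 2.31% of counts in PS19/C3aR KO, 1.92% in C3aR KO, 1.85% in PS19 and 3.59% in WT libraries. The choroid plexus transcript Ttr ranged from 9.53 to 4060 CPM (counts scaled to the library total) over the 20 libraries, with wide ranges in every group. Its median was 211 CPM in PS19/C3aR KO, 1208 CPM in PS19, 57.2 CPM in C3aR KO and 1147 CPM in WT libraries. Nothing in the labels ties each library to its own mouse, so every p-value reflects spread among libraries, part of which may be technical.

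C3ar1 (chr6:122847140-122856157, mm10), the gene named in the labels, was higher in the KO-labelled libraries. It stood at 18.05, 18.7, 15.8, 14.96 and 17.5 CPM in PS19/C3aR KO libraries and at 11.5, 9.04, 12.3, 13.7 and 4.98 CPM in PS19 libraries. Without the transgene it stood at 15.03, 14.1, 16.6, 17.98 and 16.1 CPM in C3aR KO libraries and at 2.30, 1.88, 2.11, 1.73 and 2.42 CPM in WT libraries. All 10 KO-labelled libraries lay above all 10 others, and both KO-labelled groups lay in about the same range. The log2 fold change over both backgrounds was 1.75 (SE 0.29, adjusted p = 0.00486 by edgeR). It was 2.94 for C3aR KO minus WT (adjusted p = 9.51e-08) and 0.72 for PS19/C3aR KO minus PS19, which did not pass (adjusted p = 0.0814). The difference between the backgrounds was -2.22 (SE 0.26, adjusted p = 0.00106 by edgeR). The counts sum all exons of the gene and which exons the targeted allele removes is not stated in the labels, so these counts do not check the label. Every direction below therefore rests on the labels alone, with C3ar1 higher in the libraries labelled KO.

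Over both backgrounds 168 genes (1.01% of those tested) passed an edgeR adjusted p below 0.05. Of these, 88 (0.528% of genes tested) were higher and 80 (0.48%) lower in the KO-labelled libraries. Most differences were small: the median size among the called genes was 0.37 on the log2 scale, 104 genes differed by less than 0.5, and 32 by at least 1, of which 17 were higher and 15 lower. All 168 had the same sign in both backgrounds, as did 64.9% of all genes tested. The additive fit favours such genes, so this count is a description. In 153 of the called genes (0.919% of those tested) the difference reached an unadjusted p below 0.05 in each background separately, 83 higher and 70 lower. These genes were already called on the same libraries, which favours such p-values, so this count is also a description. Without the call over both backgrounds, the same sign with an unadjusted p below 0.05 in each was found in 322 genes (1.93%). At an adjusted p below 0.05 by edgeR, few of the 168 were called within a background. There were 25 also called in PS19/C3aR KO minus PS19, 9 in C3aR KO minus WT and 2 in both, while 136 were called in neither. With 1 library left out the count of called genes lay between 97 and 371. It was 371 without WT replicate 2, 111 without PS19 replicate 2, 102 without WT replicate 5, 102 without C3aR KO replicate 2, 99 without PS19/C3aR KO replicate 2 and 97 without PS19/C3aR KO replicate 3. The count of called genes with an unadjusted p below 0.05 in each background was 301 without WT replicate 2 and 100 without WT replicate 5. It was 96 without C3aR KO replicate 2, 94 without PS19/C3aR KO replicate 2 and 95 without PS19/C3aR KO replicate 3.

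Rn45s was highest in WT libraries. With its share as a covariate 190 genes were called, among them 146 of the 168. With the choroid plexus score, the mean log2 CPM of choroid plexus markers, as a covariate 170 genes were called, among them 152 of the 168. Without the libraries above 3% Rn45s, which left 4 PS19/C3aR KO, 4 C3aR KO, 4 PS19 and 1 WT library, 16 genes were called, 11 of them among the 168. Those 16 included Fam198b, Mamdc2, Sec24d, Kptn, Coq2, D630041G03Rik and Atf4, whereas C3ar1 (log2 fold change 1.02, adjusted p = 0.25 by edgeR) and Cryz (log2 fold change 0.38, adjusted p = 0.0695) did not pass.

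The contrasts within each background share no library and were set against each other. Both come from the same fit, with a shared estimate of the spread for each gene, so their p-values are not independent. Over all genes tested, 64.9% had the same sign in both. PS19/C3aR KO minus PS19 called 42 genes (0.252% of those tested), 12 higher (0.072%) and 30 lower (0.18%), and C3aR KO minus WT called 10 (0.06%), 7 higher (0.042%) and 3 lower (0.018%). Of the 42, 38 had the same sign in C3aR KO minus WT and 18 had the same sign with an unadjusted p below 0.05 there, where 6% of all genes had such a p in either direction. Of the 10, 9 had the same sign in PS19/C3aR KO minus PS19 and 7 had the same sign with an unadjusted p below 0.05 there, where 14.5% of all genes had such a p in either direction. Across all genes the log2 fold changes of the backgrounds had a Pearson r of 0.414, given as a description since genes are not independent replicates. The interaction called 2 genes (0.012%), C3ar1 and Gbp2b, and of the 168 genes called over both backgrounds only C3ar1 passed it, while 13 of them had an unadjusted p below 0.05, as did 4.15% of all genes tested. The count of 42 was 481 without PS19 replicate 5, 222 without PS19/C3aR KO replicate 1, 25 without C3aR KO replicate 1 or 5, 17 without PS19/C3aR KO replicate 4, 16 without PS19/C3aR KO replicate 3, 12 without PS19 replicate 2, 9 without PS19 replicate 1, 8 without PS19/C3aR KO replicate 2, 7 without PS19 replicate 3 and 6 without PS19/C3aR KO replicate 5. The count of 10 was 5 without C3aR KO replicate 5.

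**Figure D1:**
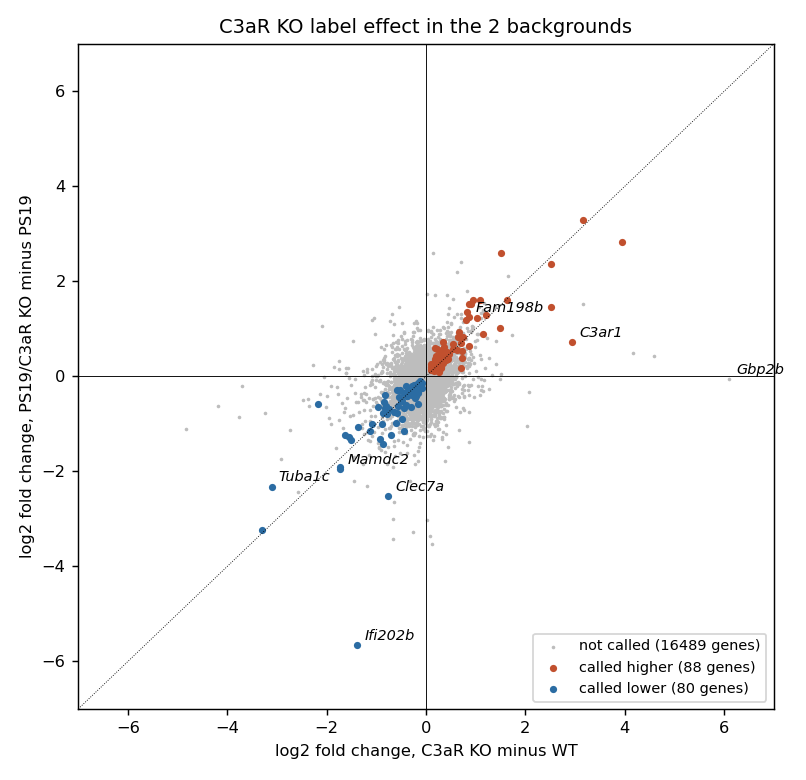
Log2 fold change of each tested gene in PS19/C3aR KO minus PS19 (vertical) against C3aR KO minus WT (horizontal). Red points are the 88 genes called higher and blue points the 80 called lower over both backgrounds, all of them in the lower left or upper right; Gbp2b, grey, stands at 6.10 on the horizontal axis and -0.06 on the vertical.

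The 5 libraries of each KO-labelled group lay apart from the 5 of its comparator in both backgrounds for 20 genes (0.12% of those tested), all of them called, 13 higher and 7 lower. Such a separation was found for 430 genes (2.58%) between PS19/C3aR KO and PS19 libraries and for 207 (1.24%) between C3aR KO and WT libraries. Among the genes called, 12 had all 10 KO-labelled libraries on one side of all 10 others, and no other tested gene did, so the share was 0.072% of all genes tested. Of these 12, 9 were higher (C3ar1, Clcn4-2, Coq2, Cryz, Gins4, Oscar, Pcdhga4, Pcdhgb8 and Vmn2r29) and 3 lower (0610040F04Rik, Pkd2l1 and Rdh13). Clcn4-2, Gins4, Oscar and 0610040F04Rik were named for this separation, after their values were seen.

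Cryz, a quinone reductase also known as zeta-crystallin (chr3:154596711-154623182), had the lowest p of all genes. It stood at 18.1, 18.6, 17.3, 19.2 and 18.5 CPM in PS19/C3aR KO libraries, against 14.5, 15.05, 14.7, 14.02 and 14.2 CPM in PS19 libraries. In C3aR KO libraries it stood at 17.6, 17.8, 15.6, 17.9 and 20.7 CPM, against 13.5, 13.99, 13.4, 13.05 and 13.5 CPM in WT libraries. The groups did not overlap in either background, and the change on the log2 scale was 0.38 (SE 0.04, adjusted p = 0.000219 by edgeR). Cryz was one of the genes called in both backgrounds on their own, with an adjusted p of 0.00497 in C3aR KO minus WT and of 0.0275 in the contrast of PS19/C3aR KO with PS19.

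Coq2, the prenyltransferase of coenzyme Q synthesis (chr5:100654723-100674288), rose by a like amount. It stood at 51.5, 52.9, 61.4, 64.1 and 53.8 CPM in PS19/C3aR KO and at 42.1, 42.8, 42.9, 39.3 and 42.5 CPM in PS19 libraries. Its values were 52.2, 61.5, 64.2, 53.4 and 61.1 CPM in C3aR KO and 42.1, 45.4, 44.3, 48.9 and 48.03 CPM in WT libraries. Again neither pair of groups overlapped, with a log2 fold change of 0.40 (SE 0.05, adjusted p = 0.000349 by edgeR).

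Kptn, a subunit of the KICSTOR complex that restrains mTORC1 when amino acids are short (chr7:16119876-16127516), fell by 0.41 on the log2 scale (SE 0.05, adjusted p = 0.000349 by edgeR). It ranged from 13.7 to 15.2 CPM in PS19/C3aR KO and from 18.02 to 19.7 CPM in PS19 libraries, and from 13.4 to 17.3 CPM in C3aR KO and from 17.2 to 21.4 CPM in WT libraries. The highest C3aR KO library lay just above the lowest WT library, and the other libraries did not overlap.

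Fam198b, which encodes a Golgi-associated kinase-like protein (chr3:79884484-79946278), rose to 9.05, 7.37, 9.26, 8.86 and 9.69 CPM in PS19/C3aR KO libraries, against 2.82, 3.21, 4.11, 4.27 and 4.22 CPM in PS19 libraries. It stood at 10.9, 8.36, 8.90, 6.63 and 8.89 CPM in C3aR KO libraries, against 4.42, 3.83, 7.77, 4.01 and 4.08 CPM in WT libraries. WT replicate 3 was the single library that overlapped the KO-labelled range. The change on the log2 scale was 1.05 (SE 0.13, adjusted p = 0.000467 by edgeR).

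Mamdc2, a secreted proteoglycan with MAM domains (chr19:23302609-23448497), fell most among the 10 genes with the lowest p. It stood at 3.39, 1.58, 2.70, 2.43 and 2.36 CPM in PS19/C3aR KO and at 10.5, 9.51, 13.7, 9.44 and 5.18 CPM in PS19 libraries. Without the transgene it stood at 2.28, 1.48, 1.08, 5.16 and 1.34 CPM in C3aR KO and at 10.6, 4.97, 9.31, 7.89 and 4.88 CPM in WT libraries, so C3aR KO replicate 4 overlapped the WT range. The change on the log2 scale was -1.85 (SE 0.25, adjusted p = 0.00103 by edgeR). Sec24d, a cargo-binding subunit of the COPII coat that carries proteins out of the endoplasmic reticulum (chr3:123264801-123365641), fell by 0.81 (SE 0.11, adjusted p = 0.000823 by edgeR). Its 10 KO-labelled libraries lay between 11.1 and 13.8 CPM and the 10 others between 13.7 and 30.9 CPM. Pkd2l1, a cation channel known from neurons that contact the cerebrospinal fluid, fell by 1.41 (SE 0.21, adjusted p = 0.00209 by edgeR) at levels of at most 1.05 CPM.

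**Figure D2:**
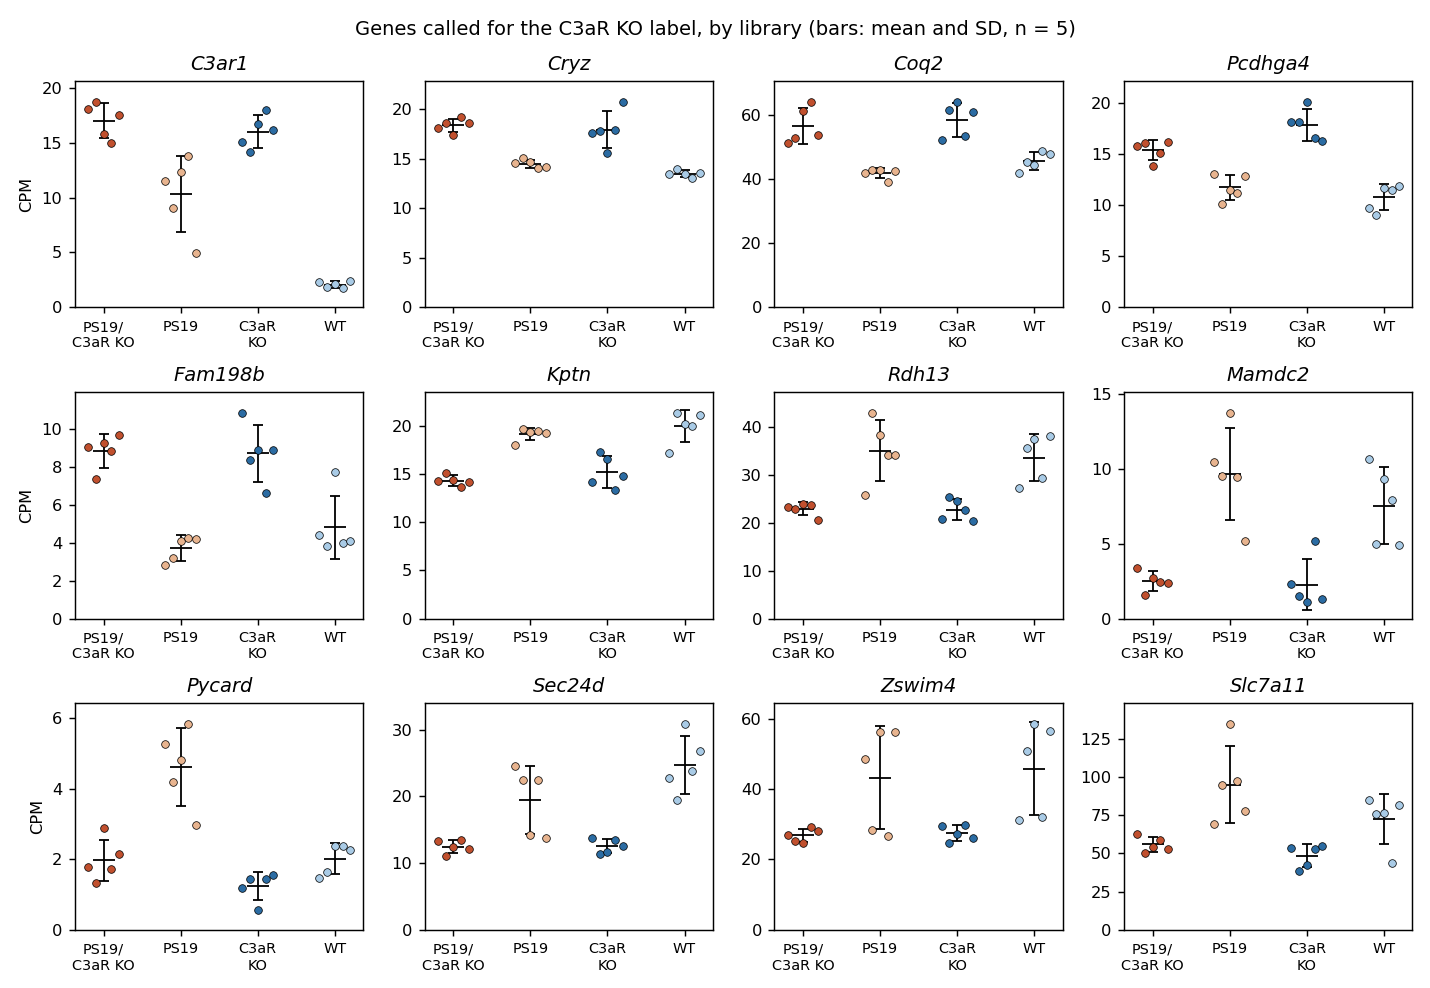
CPM of 12 called genes in each library, with each KO-labelled group left of its comparator; points are libraries, horizontal marks the mean and bars the SD (n = 5 each). C3ar1, Cryz, Coq2, Pcdhga4 and Fam198b are higher in both KO-labelled groups, while Zswim4 lies at 24.5 to 29.7 CPM in all 10 KO-labelled libraries and at 26.8 to 58.5 CPM in the others.

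Zswim4 and Zfp605 were even across the KO-labelled libraries and split among the others, while Tuba1c and Casp9 varied in both. Zswim4, a zinc-finger SWIM-domain protein, stood at 26.9, 25.2, 24.7, 29.3 and 27.97 CPM in PS19/C3aR KO and at 29.6, 24.5, 27.3, 29.7 and 26.2 CPM in C3aR KO libraries. It stood at 48.7, 28.4, 56.2, 26.8 and 56.2 CPM in PS19 and at 31.1, 50.8, 58.5, 32.1 and 56.4 CPM in WT libraries. Thus 6 of these 10 libraries were high and 4 lay near the KO-labelled level, with replicates of the same genotype on both sides. Tuba1c, an alpha-tubulin whose near-identical paralogs make its count uncertain, stood at 0.535 to 4.94 CPM in the KO-labelled libraries, at 4.59, 17.7, 15.2, 1.78 and 19.3 CPM in PS19 and at 18.6, 16.5, 1.75, 1.83 and 17.6 CPM in WT libraries. The lower PS19 and WT libraries lay inside the KO-labelled range of Tuba1c. Its change on the log2 scale was -2.70 (SE 0.54, adjusted p = 0.0189 by edgeR), beside -0.71 (SE 0.14, adjusted p = 0.0173) for Zswim4. Zfp605, a zinc-finger gene chosen here for its split after values were seen, lay at 12.2 to 15.7 CPM in all 10 KO-labelled libraries, at 12.4, 26.4, 15.5, 14.6 and 27.5 CPM in PS19 and at 27.2, 14.4, 26.7, 27.1 and 27.6 CPM in WT libraries, and was past the threshold under 11 of 33 alternatives. The initiator caspase gene Casp9 held 25.4 to 29.7 CPM in 9 KO-labelled libraries and 52.2 CPM in C3aR KO replicate 4, while the others lay between 29.2 and 69.2 CPM. Its change on the log2 scale was -0.70 (SE 0.15, adjusted p = 0.0255 by edgeR), past the threshold under 30 of 33 alternatives.

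The SD of log2 CPM within groups was more than 2 times as large in the PS19 and WT libraries as in the KO-labelled ones for 23 of the 168 called genes (13.7%), against 3.11% of all genes tested. The reverse, a ratio under 0.5, held for 10 called genes (5.95%), against 4.56% of all. What sets the split was not tested, and the labels give no litter or breeding record.

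Called genes were spread unevenly over the chromosomes. Chromosome 3 held 28 of 803 tested genes (3.49%), chromosome 18 held 13 of 460 (2.83%) and chromosome 7 held 22 of 1275 (1.73%), against 1.01% over all genes. Chromosome 12 held 0 of 605 by edgeR, with 82 at an unadjusted p below 0.05, 9 called by DESeq2 and 1 by limma-voom. Over 16656 genes tested, C3ar1 left out, these counts were 2749, 543 and 191. In windows of 10 Mb, 75 of the 168 genes fell in 16 windows with at least 3 each, out of 275 windows with a tested gene. These counts describe position and no test was made on them.

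**Figure D3:**
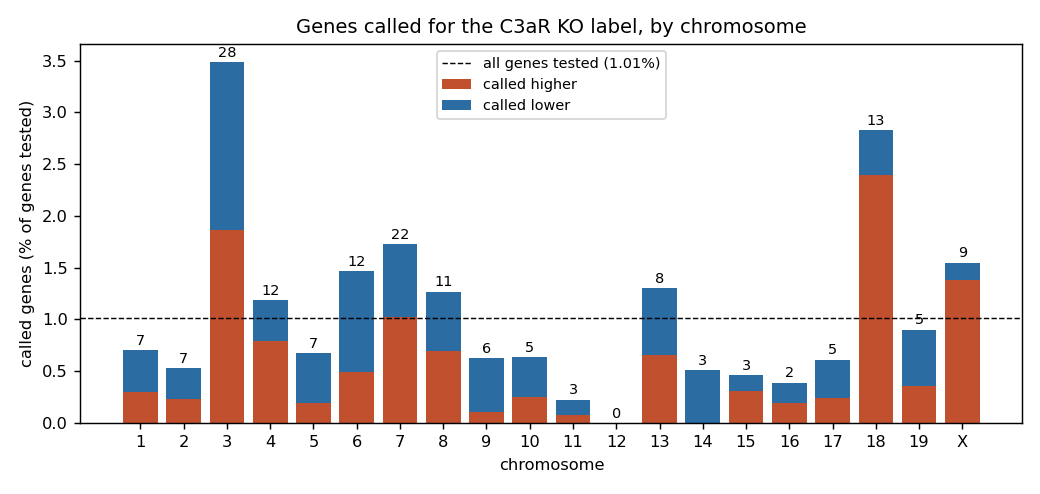
Share of tested genes called for the C3aR KO label on each chromosome, split into higher (red) and lower (blue), with the number called above each bar. Chromosomes 3, 18, 7, X, 6, 13, 8 and 4 stand above the dashed line at 1.01%, the first 3 of these highest, and chromosome 12 has none.

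The densest window with a large number of tested genes was the first 10 Mb of chromosome 7, where 12 of 87 genes (13.8%) were called, 8 higher and 4 lower. The osteoclast-associated receptor gene Oscar (chr7:3609813-3616157) stood at 2.57, 1.85, 2.07, 2.53 and 1.44 CPM in PS19/C3aR KO, against 0.940, 0.148, 0.158, 0.157 and 0.280 CPM in PS19 libraries. It stood at 1.66, 2.42, 2.85, 1.70 and 1.98 CPM in C3aR KO, against 0.981, 1.05, 0.148, 1.25 and 0.260 CPM in WT libraries. Every KO-labelled library lay above every other one, with a log2 fold change of 2.02 (SE 0.36, adjusted p = 0.00891 by edgeR).

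Rdh13, a mitochondrial retinol dehydrogenase (chr7:4425665-4471280), fell by 0.59 (SE 0.08, adjusted p = 0.000823 by edgeR), to 20.5 to 25.4 CPM in the KO-labelled libraries, against 25.8 to 43.1 CPM in the others. The neighbouring D630041G03Rik (chr7:4467245-4470884) rose by 1.27 (SE 0.18, adjusted p = 0.0018) and the actin-regulating adaptor Eps8l1 (chr7:4460638-4480487) by 1.20 (SE 0.28, adjusted p = 0.0395). The annotated spans of these 3 genes overlap, and since the sources used here give no strand setting for the counting, their reads may not be fully told apart. Eps8l1 was past the threshold under 14 of 33 alternative settings. The vomeronasal receptor gene Vmn2r29 (chr7:7212996-7278289) rose by 1.13 (SE 0.25, adjusted p = 0.0302), at 4.29 to 6.48 CPM in KO-labelled libraries, against 0.659 to 4.13 CPM in the others, and was past the threshold under 25 of 33 alternatives. The chloride-proton exchanger gene Clcn4-2 (chr7:7282309-7300916) beside it rose by only 0.17 (SE 0.03, adjusted p = 0.00348), yet its libraries did not overlap, at 210.2 to 229 CPM, against 175 to 204 CPM.

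On chromosome 18 the called genes included 6 clustered protocadherins, neuronal surface proteins whose combinations mark single cells. Pcdhga4 (chr18:37685237-37841870) stood at 15.8, 16.1, 13.8, 15.1 and 16.2 CPM in PS19/C3aR KO, against 13.1, 10.1, 11.5, 11.2 and 12.8 CPM in PS19 libraries. It stood at 18.2, 18.2, 20.1, 16.5 and 16.3 CPM in C3aR KO, against 9.72, 9.07, 11.7, 11.5 and 11.9 CPM in WT libraries. No KO-labelled library fell among the others, and the change on the log2 scale was 0.56 (SE 0.07, adjusted p = 0.000508 by edgeR). Pcdhgb8 rose by 1.25 (SE 0.20, adjusted p = 0.0034). Of the 55 clustered protocadherins tested, a family listed after values were seen, 5 rose and 1 fell (10.9% called, beside 1.01% of all genes), with a median log2 fold change of 0.14, beside -0.01 over all genes. Members of the gamma cluster share their last exons, so their counts depend on how shared reads were assigned.

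Around C3ar1 itself, 6 of 207 tested genes within 10 Mb were called (2.9%, beside 1.01% of all genes tested), 1 higher and 5 lower, and 1 of 13 within 1 Mb. The nearest was Rimklb, an N-acetylaspartylglutamate synthetase (chr6:122447296-122487062), which fell by 0.31 (SE 0.06, adjusted p = 0.0216 by edgeR). The cell adhesion gene Ninj2 fell by 1.14 (SE 0.18, adjusted p = 0.00354), to 0.459 to 1.08 CPM in KO-labelled libraries, against 1.04 to 2.60 CPM in the others. Wnk1, a kinase that controls chloride transport, fell by 0.25 (SE 0.05, adjusted p = 0.0197). Akap3, a protein kinase A anchor known from sperm, rose by 0.98 (SE 0.18, adjusted p = 0.011) at less than 1 CPM in every library. The predicted gene 4933413G19Rik fell by 0.74 with an adjusted p of 0.0498 and was past the threshold under 10 of 33 alternatives. Clec7a, the remaining called gene of the region, is described with the microglial lists.

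Atf4, the transcription factor that raises genes of amino acid supply when amino acids are short or the endoplasmic reticulum is stressed, rose to 118, 128, 128, 139 and 119 CPM in PS19/C3aR KO libraries, against 85.0, 88.2, 77.0, 105 and 80.7 CPM in PS19 libraries. In C3aR KO libraries it stood at 99.97, 127, 114, 117 and 107 CPM, against 115, 99.0, 103, 72.7 and 77.5 CPM in WT libraries. The groups did not overlap with the transgene and overlapped without it. The change on the log2 scale was 0.40 (SE 0.08, adjusted p = 0.0179 by edgeR), with 0.53 in PS19/C3aR KO minus PS19 (adjusted p = 0.0421) and 0.27 in C3aR KO minus WT (adjusted p = 0.76).

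Of 37 aminoacyl-tRNA synthetase genes, which charge tRNAs with amino acids and were listed after values were seen, 5 rose and 0 fell by edgeR (13.5% called, beside 1.01% of all genes), and 31 had a log2 fold change above 0, as did 7914 of all 16657 genes tested. At an unadjusted p below 0.05, 13 were higher and 1 lower, beside 1251 and 1498 of 16656 genes without C3ar1, while DESeq2 called 10 higher and 0 lower and limma-voom 6 and 0. Those that rose included Cars by 0.37, Sars by 0.23, Nars by 0.21 and Aars by 0.21, which were past the threshold under 20, 14, 18 and 32 of 33 alternatives. Aars stood at 192, 218, 205, 205 and 199.6 CPM in PS19/C3aR KO, against 167, 169, 164, 198 and 158 CPM in PS19 libraries. In C3aR KO libraries Aars stood at 191, 202, 198, 182 and 195 CPM, against 179, 177, 184, 169 and 157 CPM in WT libraries. With the transgene PS19 replicate 4 alone reached the KO-labelled range, and without it WT replicate 3 did (adjusted p = 0.0142 by edgeR).

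Of 11 Slc7 amino acid transporters, also listed after values were seen, 1 was called higher and 2 lower (27.3%, beside 1.01% of all genes tested). Slc7a3, a carrier of cationic amino acids, rose by 1.09 (SE 0.25, adjusted p = 0.035 by edgeR) and overlapped in both backgrounds, past the threshold under 19 of 33 alternatives. Slc7a11, the cystine-glutamate exchanger of astrocytes and a known Atf4 target, fell by 0.67 (SE 0.12, adjusted p = 0.00891). It stood at 62.7, 50.6, 54.4, 58.5 and 53.0 CPM in PS19/C3aR KO, against 69.3, 94.9, 135, 97.2 and 77.8 CPM in PS19 libraries. In C3aR KO libraries it stood at 53.8, 38.7, 42.2, 52.8 and 55.1 CPM, against 85.1, 75.9, 76.6, 44.0 and 81.4 CPM in WT libraries, where WT replicate 4 was low. Slc7a2, another cationic carrier, fell by 0.33 (adjusted p = 0.0255, past the threshold under 27 of 33 alternatives), and Phgdh, the first enzyme of serine synthesis, fell by 0.24 (adjusted p = 0.0179). A list of 16 Atf4-induced genes, made after values were seen, held no tRNA synthetase. Of these 16, edgeR called 0 higher and 1 lower, Slc7a11 (6.25%, beside 1.01% of all genes). At an unadjusted p below 0.05, 8 were higher and 2 lower, beside 1251 and 1498 of 16656 genes without C3ar1. DESeq2 called 6 higher and 1 lower, beside 290 and 253 of those genes, and limma-voom 3 and 1, beside 94 and 97. Among the 16, Asns at 0.30 (adjusted p = 0.0646) and Mthfd2 at 0.46 (adjusted p = 0.0517) were short of the threshold in edgeR.

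**Figure D4:**
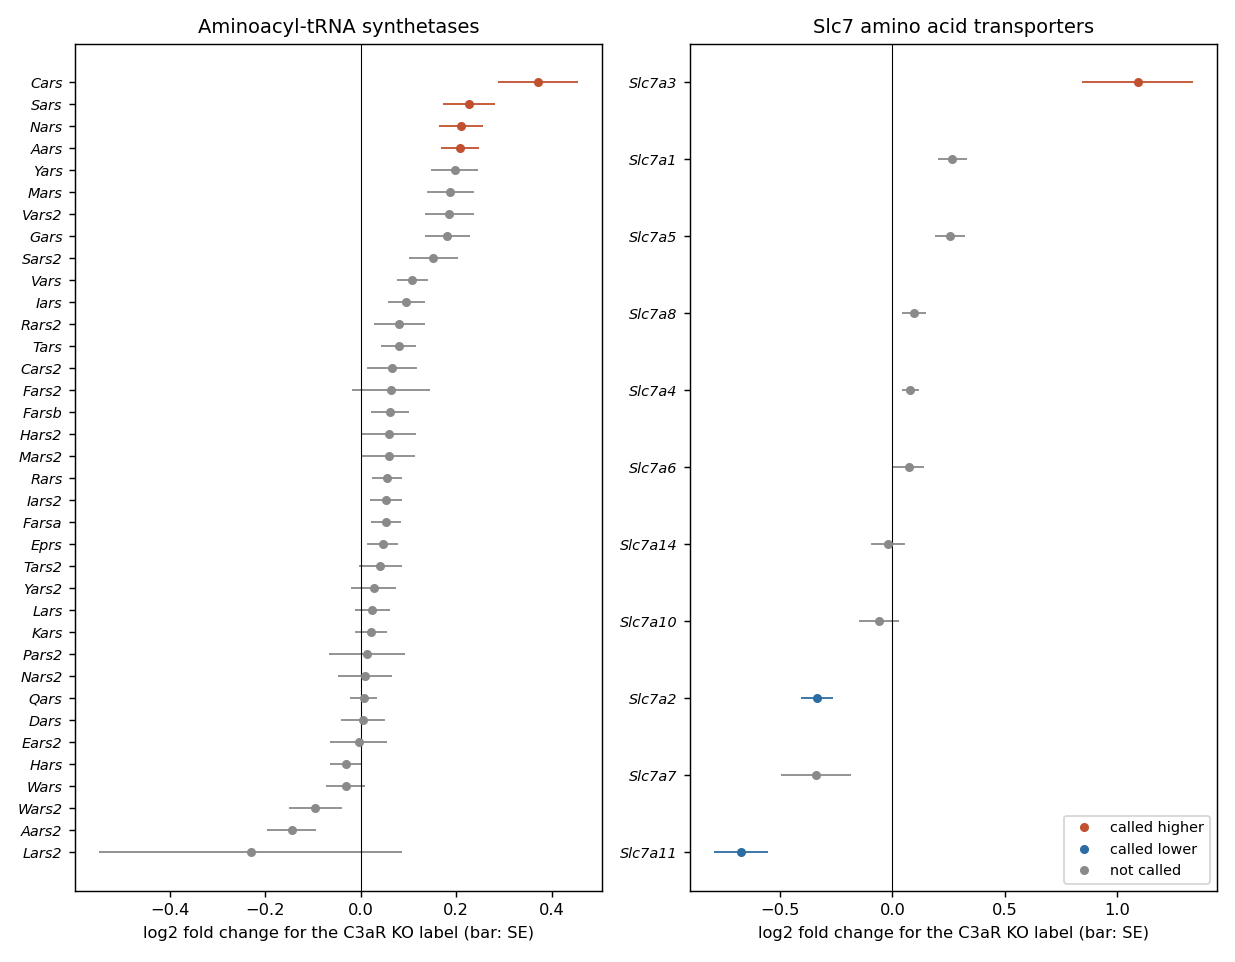
Log2 fold change for the C3aR KO label over both backgrounds, with its SE, for aminoacyl-tRNA synthetases (left) and 11 Slc7 transporters (right). Red marks genes called higher and blue genes called lower: among the synthetases shown, 4 are red and none blue, and Slc7a3 at 1.09 stands opposite Slc7a11 at -0.67.

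The promoter letters of Aars and Slc7a11 are shown because these members moved in opposite directions and both hold the same Atf4-type element. The element searched was TGATGNAA on either strand in the 250 bases before each RefSeq start (GRCm38.p6), and capitals mark its matches.
Aars, plus strand, chr8:111033702-111033761: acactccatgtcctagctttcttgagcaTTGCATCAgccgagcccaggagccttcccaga
Slc7a11, minus strand, chr3:50443634-50443693: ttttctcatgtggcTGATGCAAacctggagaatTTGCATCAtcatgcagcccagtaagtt
The Aars match begins 112 bases before the start, and the Slc7a11 matches begin 66 and 47 bases before it. A match was found in 3.45% of 32851 promoter windows of that length, and at least 2 matches in 0.0396%. Among called genes it was found in 6 of the 118 with a window (5.08%), against 3.91% of all genes with a window. Among tRNA synthetases it was found in 3 of 26, which were Aars, Gars and Tars. Of these, Gars and Tars were not called (adjusted p = 0.062 and 0.289 by edgeR). These matches are letters in a window and say nothing of binding.

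Immune and glial lists were mostly below 0 in the KO-labelled libraries with few calls. Leaving out C3ar1, 8 of 740 tested list members were called (1.08%, beside 1.01% of all genes), 2 higher and 6 lower. That count was 25 without WT replicate 2, 13 without PS19 replicate 5, 5 without WT replicate 5, C3aR KO replicate 2, PS19 replicate 2 or PS19/C3aR KO replicate 3, and 4 without PS19 replicate 1 or PS19/C3aR KO replicate 2. Among 31 genes of disease-associated microglia edgeR called 0 higher and 1 lower, with 0 and 10 at an unadjusted p below 0.05, and DESeq2 called 0 and 3 and limma-voom 0 and 1. The list's median log2 fold change was -0.29, made of -0.66 in PS19/C3aR KO minus PS19 and 0.09 in C3aR KO minus WT. Of 30 general microglial and myeloid genes edgeR called 0, though 20 were lower at an unadjusted p below 0.05, where 1498 of all genes were, and DESeq2 called 1 lower and limma-voom 0. Their medians were -0.36 over both backgrounds, -0.64 with the transgene and -0.05 without it. The median over all genes tested was -0.01 over both backgrounds.

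The summed level of the general microglial genes lay at 594 to 998 CPM in PS19/C3aR KO and at 723 to 1379 CPM in PS19 libraries, and at 528 to 579 CPM in C3aR KO and at 527 to 575 CPM in WT libraries. In bulk tissue, fewer cells of a type and less RNA per cell cannot be told apart. This level moved with the label in the PS19 background beside the microglial genes named next, and its part in their values was not tested.

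Clec7a, the receptor Dectin-1 and a marker of disease-associated microglia, stood at 2.04, 0.864, 2.88, 1.07 and 0.380 CPM in PS19/C3aR KO and at 14.1, 5.78, 6.62, 13.7 and 1.20 CPM in PS19 libraries. Without the transgene it was barely detected, at 0.0269 to 0.178 CPM in C3aR KO and at 0.186 to 0.286 CPM in WT libraries. The change on the log2 scale was -2.09 (SE 0.46, adjusted p = 0.0315 by edgeR), with -2.53 with the transgene (adjusted p = 0.0402) and -0.77 without it (adjusted p = 0.934). It was past the threshold under 23 of 33 alternatives. Pycard, the inflammasome adaptor ASC, fell by 0.98 (SE 0.18, adjusted p = 0.0125). It stood at 1.79, 1.32, 2.88, 1.71 and 2.15 CPM in PS19/C3aR KO, against 5.26, 4.20, 4.82, 5.85 and 2.97 CPM in PS19 libraries, and at 0.565 to 1.57 CPM in C3aR KO, against 1.47 to 2.37 CPM in WT libraries.

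Il33, a cytokine that glia release on damage, fell by 0.47 (SE 0.09, adjusted p = 0.015 by edgeR). It lay at 42.5 to 49.2 CPM in PS19/C3aR KO and at 58.8 to 82.9 CPM in PS19 libraries, and overlapped without the transgene, at 32.6 to 51.9 CPM in C3aR KO and at 40.8 to 57.0 CPM in WT libraries. Gusb, a lysosomal glucuronidase, fell by 0.37 (SE 0.08, adjusted p = 0.0337), with -0.58 with the transgene and -0.16 without it, and was past the threshold under 20 of 33 alternatives. Gbp11, an interferon-inducible GTPase of a family of near copies, fell by 1.22 (SE 0.25, adjusted p = 0.0189). Its levels were low and overlapped, at 0.215 to 1.43 CPM in KO-labelled libraries, against 1.09 to 2.70 CPM in the others. Ifi202b, an interferon-inducible gene known to differ between mouse strains, was called lower at a log2 fold change of -3.97 (SE 0.95, adjusted p = 0.0479). That value rests on PS19 libraries at 1.097, 4.10, 2.82, 0 and 0.476 CPM, with 0 to 0.115 CPM in the KO-labelled libraries, and it was past the threshold under 13 of 32 alternatives.

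Complement and signalling genes around the receptor did not pass. Of 31 complement genes, 19 chemoattractant receptors related to C3aR and 28 genes of JAK-STAT3 signalling, edgeR called 0 in either direction, with medians of -0.01, -0.16 and -0.10. At an unadjusted p below 0.05 there were 10, 8 and 4 of them, and DESeq2 called 1, 2 and 0 and limma-voom 1, 1 and 0. Among 16656 genes tested, C3ar1 left out, 2749 had such a p and DESeq2 called 543. C3, the source of the ligand, was named for its role after values were seen and had a log2 fold change of -1.27 (SE 0.42, adjusted p = 0.142 by edgeR). Pan-reactive astrocyte genes had 0 of 13 called by edgeR, DESeq2 or limma-voom and 3 lower at an unadjusted p below 0.05. Beside 7914 of all 16657 genes tested, 0 of the 13 had a log2 fold change above 0. Their median was -0.35, made of -0.61 with the transgene and -0.05 without it. Interferon response genes had medians of -0.27 with the transgene and 0.09 without it, and MHC class II genes -0.78 and 0.12. Over the 44 lists, 22 had a median below -0.1 in PS19/C3aR KO minus PS19 and 4 in C3aR KO minus WT, and 16 had medians of opposite sign.

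**Figure D5:**
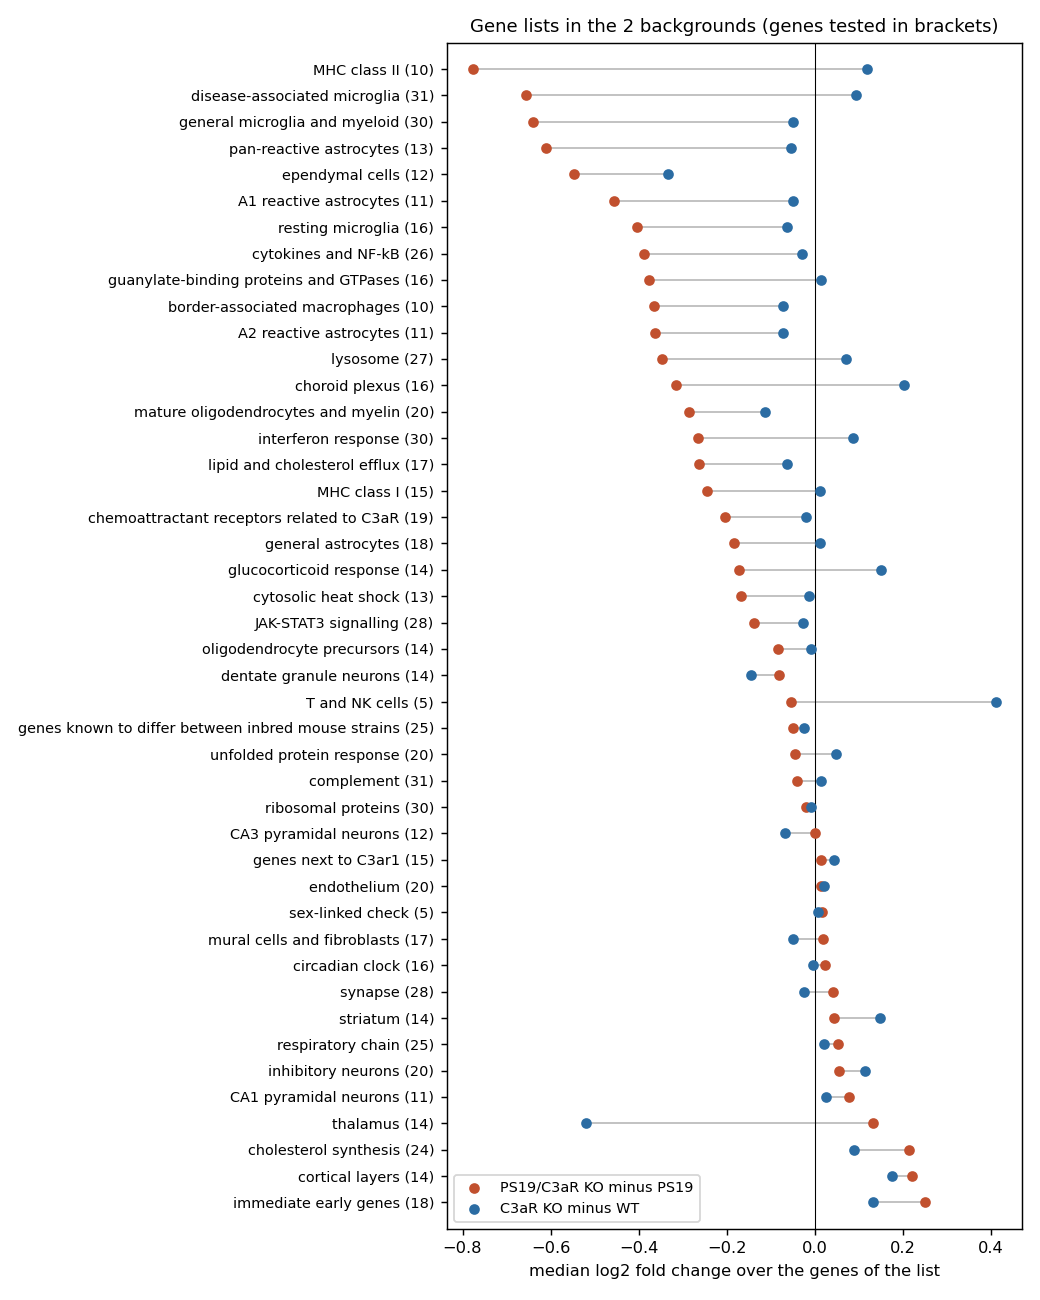
Median log2 fold change of the tested genes of each of 44 lists in PS19/C3aR KO minus PS19 (red) and C3aR KO minus WT (blue), sorted by the red points. MHC class II, disease-associated microglia and general microglia lie furthest left in red at -0.78, -0.66 and -0.64, while their blue points lie at 0.12, 0.09 and -0.05.

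Some lists had the same sign in both backgrounds. All 24 cholesterol synthesis genes had a log2 fold change above 0, as did 7914 of all 16657 genes tested. The list's median was 0.15, made of 0.21 with the transgene and 0.09 without it. Still, edgeR called 0, with 9 higher at an unadjusted p below 0.05, where 1251 of 16656 genes without C3ar1 were. DESeq2 called 1 higher and limma-voom 0, beside 290 and 94 of those genes. Ependymal cell markers had 0 of 12 above 0, with medians of -0.55 with the transgene and -0.33 without it, and myelin genes of mature oligodendrocytes 0 of 20 above 0, with medians of -0.29 and -0.11. None of either list was called by edgeR, DESeq2 or limma-voom. At an unadjusted p below 0.05, 2 ependymal and 12 myelin genes were lower, as were 1498 of the 16656 genes. The summed ependymal level overlapped in both backgrounds, at 49.1 to 145 CPM in PS19/C3aR KO and 83.0 to 146 CPM in PS19, and at 51.6 to 105 CPM in C3aR KO and 46.2 to 110 CPM in WT libraries. Thalamic markers, which belong to tissue beside the hippocampus, had 0 of 14 genes above 0 in C3aR KO minus WT (median -0.52), where 8184 of all 16657 genes were. In PS19/C3aR KO minus PS19, 11 of them were above 0 (median 0.13), where 8106 of all genes were.

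The remaining named genes belong to no list with other calls. Cort, the neuropeptide cortistatin of inhibitory neurons, rose by 1.01 (SE 0.18, adjusted p = 0.00766 by edgeR). It stood at 4.22 to 7.58 CPM in PS19/C3aR KO, against 1.97 to 4.51 CPM in PS19 libraries, and at 5.97 to 10.8 CPM in C3aR KO, against 2.39 to 4.69 CPM in WT libraries. Sfrp1, a secreted Wnt antagonist, rose by 0.76 (SE 0.16, adjusted p = 0.0205), at 18.4 to 28.1 CPM in KO-labelled libraries, against 6.73 to 22.5 CPM in the others. The chemokine gene Ccl27a rose by 1.25 (SE 0.24, adjusted p = 0.0142), though it lies in a duplicated stretch of chromosome 4 whose copies share reads. Akr1c14, a steroid dehydrogenase, rose by 0.79 (SE 0.17, adjusted p = 0.0262), past the threshold under 27 of 33 alternatives. The BMP antagonist Nbl1 fell by 0.72 (SE 0.16, adjusted p = 0.0309), past the threshold under 23 of 33 alternatives. Clec3b, which encodes tetranectin, fell by 1.04 (SE 0.22, adjusted p = 0.0255), past the threshold under 31 of 33 alternatives. The mouse tau gene Mapt and the prion gene Prnp, whose promoter drives the transgene, had log2 fold changes of 0.04 (adjusted p = 0.607) and -0.03 (adjusted p = 0.708) and were not called.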

How the data were processed

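Hippocampal polyadenylated RNA was sequenced as 76-nt read pairs. Per the labels' protocols, reads were placed on mm10 by TopHat 2.0.9, and htseq-count summed those over the union of each gene's exons. The deposited values are these whole-number counts, which the authors left without normalization. DESeq2 is also named, with no role, per the submitters' processing notes. A strand setting or annotation release is not given in the sources used here. In each file 5 summary lines were left out. Between 17.4 and 25.4% of uniquely placed pairs met no exon.

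Sample titles gave the groups. The main test was an edgeR 4.0.16 quasi-likelihood fit (R 4.3.3) of the C3aR KO label with PS19 status as a block, TMM normalization, and filterByExpr with a minimum count of 10 and total of 15. A second fit with 4 genotypes gave the values within each background and the interaction. Calls needed a Benjamini-Hochberg adjusted p below 0.05 over all 16657 genes, and every adjusted p is from edgeR. The SE is the size of the log2 fold change over the square root of F. Its median was 0.07 over both backgrounds and 0.10 within one of them. Chi-square over degrees of freedom between libraries of a group was at least 8.62, so none was a duplicate. The fit was run on simulated counts with 100 genes changed 2-fold and 100 changed 1.5-fold. There edgeR recovered 95% and 76% of them, and 7 of its 178 calls were unchanged genes. The simulated counts held no transgene effect, so they do not check the block or the interaction.

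Genes named are C3ar1, Mapt and Prnp; the 10 highest and 10 lowest called log2 fold changes where mean log2 CPM reached 1, without predicted genes; the 10 with the lowest p; up to 3 called members per list; and up to 10 called genes within 10 Mb of C3ar1. Some genes that this rule names are not reported here. The comparison, members and lists were chosen with earlier results of these data known. Positions are RefSeq, GRCm38.p6, matched for 99.7% of tested genes. Alternatives were other normalizations, filters, limma-voom 3.58.1, DESeq2 1.42.0, covariates, the replicate number as a block and leaving out each library.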

Additional observations from a re-analysis of the deposited data

Results flagged for a closer look

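The C3aR KO label had effects that differed between the backgrounds in 2 genes by the interaction test of edgeR over all genes. For C3ar1 the difference was -2.22 on the log2 scale (adjusted p = 0.00106). For Gbp2b, an interferon-inducible GTPase not called over both backgrounds, it was -6.16 (adjusted p = 0.00188). Its group means were 5.20 CPM in PS19/C3aR KO, 5.43 CPM in PS19, 2.45 CPM in C3aR KO and 0.03 CPM in WT libraries. Like Ifi202b, Gbp2b is in the list of genes known to differ between inbred mouse strains. What sets its level was not tested.

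Single libraries stood far from the rest of their group in 10 of the 160 groups of 5 examined over the named genes, where chance gives about 1 in 20. Among KO-labelled libraries these were Casp9 at 52.2 CPM in C3aR KO replicate 4, against 25.4 to 29.3 CPM in the others of its group, Clec3b at 4.97 CPM in PS19/C3aR KO replicate 3, against 2.86 to 3.34 CPM, and Il33 at 49.2 CPM in PS19/C3aR KO replicate 4, against 42.5 to 44.3 CPM. Among PS19 libraries they were Pcdhgb8 at 3.09 CPM and Kptn at 18.02 CPM in replicate 1, Slc7a3 at 13.3 CPM and Coq2 at 39.3 CPM in replicate 4, and Clec3b at 4.31 CPM in replicate 5. Among WT libraries they were Fam198b at 7.77 CPM in replicate 3 and Ifi202b at 0.558 CPM in replicate 4. The causes were not tested.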

How the results depend on the processing

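No called gene named here changed direction under any alternative run, while Mapt, not called, ran from -0.02 to 0.05. Fam198b, Mamdc2, Sec24d, Kptn, Coq2, D630041G03Rik, Atf4 and Phgdh stayed past the threshold under all of them. With 1 library left out, calls over both backgrounds ranged from 97 to 371 (higher 47 to 206, lower 50 to 165). Those with an unadjusted p below 0.05 in each background (counted as in each background below) ranged from 94 to 301. Called genes near C3ar1 ranged from 4 to 8 and list members from 4 to 25. Calls in PS19/C3aR KO minus PS19 ranged from 6 to 481 and in C3aR KO minus WT from 5 to 15. Called genes with an interaction ranged from 1 to 1. DESeq2 called 544 genes (291 higher, 253 lower, all 168 among them), 330 in each background, 10 near C3ar1, 41 list members, 443 and 58 within the backgrounds, and 2 with an interaction. The replicate block gave 315 (138 higher, 177 lower), 272 in each background, 22 list members and 212 calls in PS19/C3aR KO minus PS19. The labels do not say whether replicate numbers pair the libraries. Same-number correlations ran from -0.27 to 0.55, with 11 of 20 above 0.1. No correlations between different numbers were set beside them, so they cannot decide this. Limma-voom gave 89 calls in PS19/C3aR KO minus PS19 and 13 list members, and the mean of both effects in the 4-genotype fit gave 2 with an interaction. With the Rn45s share as a covariate, list members came to 14 and within-background calls to 9 and 3. Adding the choroid plexus score, chosen after seeing the data, gave 124 lower genes, 17 list members, and 7 and 4 calls. Without libraries above 3% Rn45s, also chosen after seeing the data, 16 genes were called (5 higher, 11 lower), 16 in each background, 0 near C3ar1, 2 list members, 2 and 1 within the backgrounds, and 0 with an interaction; 7 libraries fewer were fitted, 4 of them WT. Requiring an unadjusted p below 0.01 in each background left 87 genes, and libraries fully apart in each left 20. Depth limits calls at low levels: Akap3 and Pkd2l1 rest on about 1 CPM or less, and Ifi202b was near 0 in most libraries.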
